A study of Mus musculus with 4 samples.

Results

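Chemokines are small secreted proteins that draw white blood cells along a gradient, and this account follows 10 of their genes through 4 mouse oral cancer lines. Cxcl1, Cxcl2, Cxcl3, Cxcl5 and Ppbp encode attractants of neutrophils, and Cxcl10, Cxcl16, Ccl2, Ccl5 and Ccl20 encode attractants of other white blood cells. The 10 genes were chosen by name from the deposited expression table, which lists 34685 genes, after earlier results of the same table were known, so their levels are given as a description and no test was made on them.

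RNA was sequenced from cultured cells, and each line gave 1 library. AOC3 and AOC11 are head and neck cancer lines from carcinogen-induced tumors of the oral cavity, and AOC3-LN and AOC11-LN come from metastatic lymph node tumors of the same 2 mice, so that each mouse gave a primary line and a lymph node line. All lines share the C57BL/6 background, exposure of the buccal mucosa to the carcinogen DMBA, passage through a tumor in the flank of a second host, removal of fibroblasts with an isolation kit, and growth in serum-containing DMEM/F12 medium. The samples are cultured cells rather than tumors with their neutrophils, lymphocytes and stroma, and each line is a single culture from a single tumor. With 1 library per line, effects of line, tumor and mouse cannot be told apart, and no difference below has a replicate check.

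Neutrophil-attracting CXC chemokines carry a glutamate-leucine-arginine (ELR) motif ahead of their first cysteines and act through the receptor Cxcr2 on neutrophils. Epithelial cells make them when interleukin 1, tumor necrosis factor, interleukin 17 or microbial products activate the transcription factor NF-kB, and squamous carcinomas are known to release them. Other chemokines use other receptors: Cxcl10 acts on Cxcr3 of T and NK cells, Cxcl16 on Cxcr6, Ccl2 on Ccr2 of monocytes, and Ccl20 on Ccr6 of dendritic cells and some T cells.

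The neutrophil attractants lie next to each other on chromosome 5. Promoter stretches are shown as a description, and a link between their letters and the levels in the lines was not tested. Of the 10 genes, 6 had an entry in the RefSeq promoter table of build GRCm38.p6 (Cxcl1, Cxcl2, Cxcl3, Ppbp, Cxcl10 and Ccl20), and Cxcl5, Cxcl16, Ccl2 and Ccl5 had none. Matches to an NF-kB-type motif (GGG, any 3 bases, then TTCC) on either strand were searched in the 250 bases before each start site. They were present in 5 of the 6 genes, against 4.65% of 32851 promoters of the same length, and Ppbp was the gene without one. The 150 bases from -180 to -31 follow for Cxcl1 (chr5:90891065-90891214, plus strand), Cxcl2 (chr5:90903719-90903868, plus strand), Cxcl3 (chr5:90785921-90786070, plus strand), Ppbp (chr5:90768338-90768487, plus strand) and Ccl20 (chr1:83116586-83116735, plus strand), and capitals mark the NF-kB-type matches, overlapping ones joined. They are written 5′ to 3′ on the strand of the gene.
Cxcl1: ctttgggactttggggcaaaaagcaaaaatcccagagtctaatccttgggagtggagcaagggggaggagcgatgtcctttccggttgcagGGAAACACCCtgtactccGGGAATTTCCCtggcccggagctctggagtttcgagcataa
Cxcl2: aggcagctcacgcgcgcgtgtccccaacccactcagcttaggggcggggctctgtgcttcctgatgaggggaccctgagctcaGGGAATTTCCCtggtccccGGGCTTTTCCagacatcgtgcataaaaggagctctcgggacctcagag
Cxcl3: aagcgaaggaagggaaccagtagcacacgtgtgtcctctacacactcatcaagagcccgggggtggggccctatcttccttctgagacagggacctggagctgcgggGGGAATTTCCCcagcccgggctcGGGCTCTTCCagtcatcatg
Ppbp: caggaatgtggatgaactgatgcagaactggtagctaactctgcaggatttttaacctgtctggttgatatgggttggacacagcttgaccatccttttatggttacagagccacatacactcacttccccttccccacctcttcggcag
Ccl20: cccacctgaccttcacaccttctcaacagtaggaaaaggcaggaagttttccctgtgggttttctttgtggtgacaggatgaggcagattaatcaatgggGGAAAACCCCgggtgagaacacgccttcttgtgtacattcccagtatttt

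Cxcl1, Cxcl2 and Cxcl3 shared the exact run GGGAATTTCCC, the longest that their windows have in common around an NF-kB-type match, and 14 of the 32851 windows hold it on either strand (0.0426%). It contains 1 match on each strand, overlapping each other. Counted back from the RefSeq start site, it lay at -71 to -61 in Cxcl1, with a further match at -89 to -80 on the reverse strand. In Cxcl2 it lay at -97 to -87, with a further match at -78 to -69, and in Cxcl3 at -73 to -63, with a further match at -50 to -41. Ccl20 held 1 match, at -80 to -71 on the reverse strand. Cxcl10 held 2, at -159 to -150 and at -104 to -95. AP-1-type letters (TGANTCA) were found in Ppbp and Cxcl10, against 6.75% of promoters, and ISRE-type letters (GAAA, any 2 bases, GAAA), the type bound by interferon-activated factors, in Cxcl10, against 2.98%. TATA-type letters (TATAA) were found in 3 of the 6, against 22.8%. A match is a run of letters and says nothing of binding in these lines, which was not measured.

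**Figure D1:**
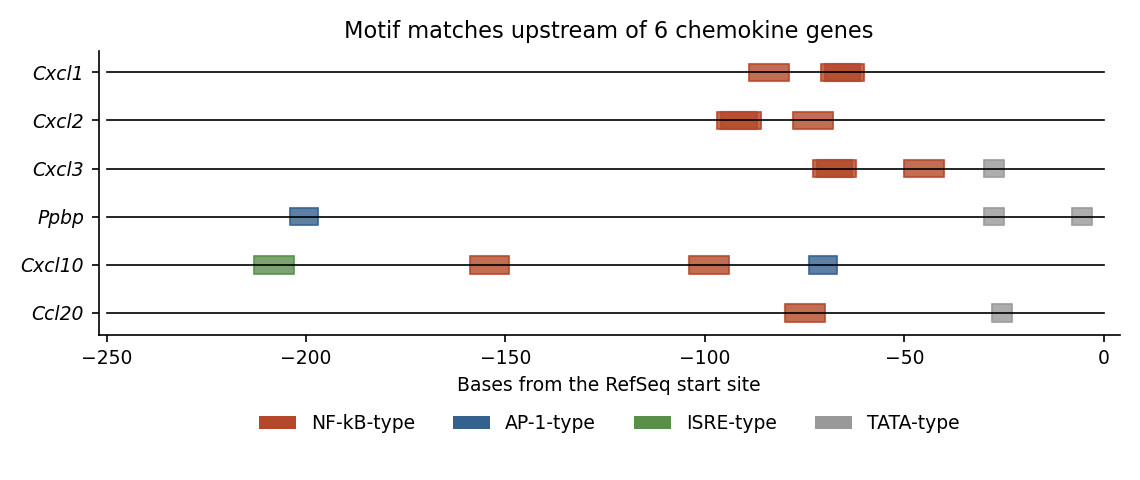
Position of motif matches in the 250 bases before the RefSeq start site of the 6 genes with a promoter entry (horizontal axis, bases from the start site). Each box is a match on either strand, colored by motif; NF-kB-type boxes are present in 5 of the 6 genes and absent from Ppbp.

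Levels are given as FPKM, fragments per kilobase of transcript scaled to the depth of the library, which allows genes to be compared per length. All 10 genes reached 1 FPKM in at least 1 line. Differences between lines are given as linear ratios of FPKM and as log2 differences of quantile-normalized log2(FPKM + 1) values, which understate the change of low genes. A log2 difference above 1 or below -1, that is 2-fold, is called past the threshold. The 95% intervals come from fragment numbers estimated from the steps of the FPKM values and cover counting error only. Each library was scaled to an estimated 28300000 to 33900000 fragments.

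Cxcl1, the most abundant neutrophil attractant in 3 of the 4 lines, was lower in both lymph node lines than in the primary line of the same mouse. Its level was 312.6 FPKM in AOC3 and 124.7 in AOC3-LN, against 357.2 in AOC11 and 77.8 in AOC11-LN. The primary lines were thus the high pair, 2.51-fold above AOC3-LN (interval 2.40 to 2.62) in mouse 3 and 4.59-fold above AOC11-LN (4.37 to 4.82) in mouse 11. The log2 differences, lymph node line minus primary line, were -1.33 and -2.20. Between the primary lines Cxcl1 differed by 1.14-fold (1.11 to 1.18), the smallest difference between AOC3 and AOC11 among the 10 genes. Even at its lowest it stood above 89.9% of the 14165 genes that reached 1 FPKM in a line.

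Cxcl5, an attractant made mainly by epithelial cells, separated the mice as well as the sites. It measured 27.3 FPKM in AOC3 and 6.15 in AOC3-LN, against 180.4 in AOC11 and 37.1 in AOC11-LN. Each lymph node line was lower than its primary line, by 4.45-fold in mouse 3 (3.88 to 5.12) and 4.87-fold in mouse 11 (4.62 to 5.13), and both AOC11 lines were above both AOC3 lines. AOC11 was 6.60-fold above AOC3 (6.22 to 7.0) and AOC11-LN was 6.03-fold above AOC3-LN (5.28 to 6.92). Its log2 difference between the means of the AOC3 and AOC11 lines was -2.49, and leaving out 1 library at a time it ran from -3.64 (without AOC11-LN) to -1.34 (without AOC11).

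Cxcl3, a close relative of Cxcl2, stood out in 1 line. Its level was 3.93 FPKM in AOC3 and 1.37 in AOC3-LN, against 31.9 in AOC11 and 1.78 in AOC11-LN. AOC11 was 8.10-fold above AOC3 (6.66 to 9.94) and 17.9-fold above its own lymph node line (13.4 to 24.2). The lymph node lines did not differ beyond counting error, with a ratio of AOC11-LN to AOC3-LN of 1.30 (0.824 to 2.09). The difference in mouse 3, -0.93 on the log2 scale, fell short of the 2-fold threshold on that scale, although the ratio of AOC3 to AOC3-LN was 2.87 (1.93 to 4.37). With a pseudocount of 0.1 it was -1.26, past the threshold. Cxcl3 and Cxcl2 share 126 of their 50-base stretches, which is 3.51% of those of Cxcl3 and 5.84% of those of Cxcl2, so that a small part of the reads could be assigned to either.

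Cxcl2, often the partner of Cxcl1 in inflamed tissue, was low throughout. It measured 0.815 FPKM in AOC3 and 0.814 in AOC3-LN, against 4.32 in AOC11 and 2.97 in AOC11-LN. The AOC3 lines did not differ beyond counting error (ratio 1.0, interval 0.546 to 1.85), and AOC11 was 5.30-fold above AOC3 (3.46 to 8.41). Within mouse 11 the primary line was 1.46-fold above the lymph node line (1.11 to 1.92). The values rest on an estimated 26, 22, 135 and 91 fragments, in the same order of lines.

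Ppbp, the precursor of the platelet chemokine Cxcl7, went in opposite directions in the mice. Its level was 26.4 FPKM in AOC3 and 255.5 in AOC3-LN, against 102.8 in AOC11 and 25.7 in AOC11-LN. AOC3-LN was 9.68-fold above AOC3 (9.0 to 10.4), whereas AOC11-LN was 4.00-fold below AOC11 (3.69 to 4.33). The lowest lines, AOC3 and AOC11-LN, had overlapping intervals of 24.6 to 28.3 and 23.9 to 27.6 FPKM. Ppbp was the only one of the 10 genes that was highest in AOC3-LN, where it stood above 97.4% of the genes over 1 FPKM. The platelet gene Pf4, which lies beside it, was at 0.245 FPKM or less in every line.

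**Figure D2:**
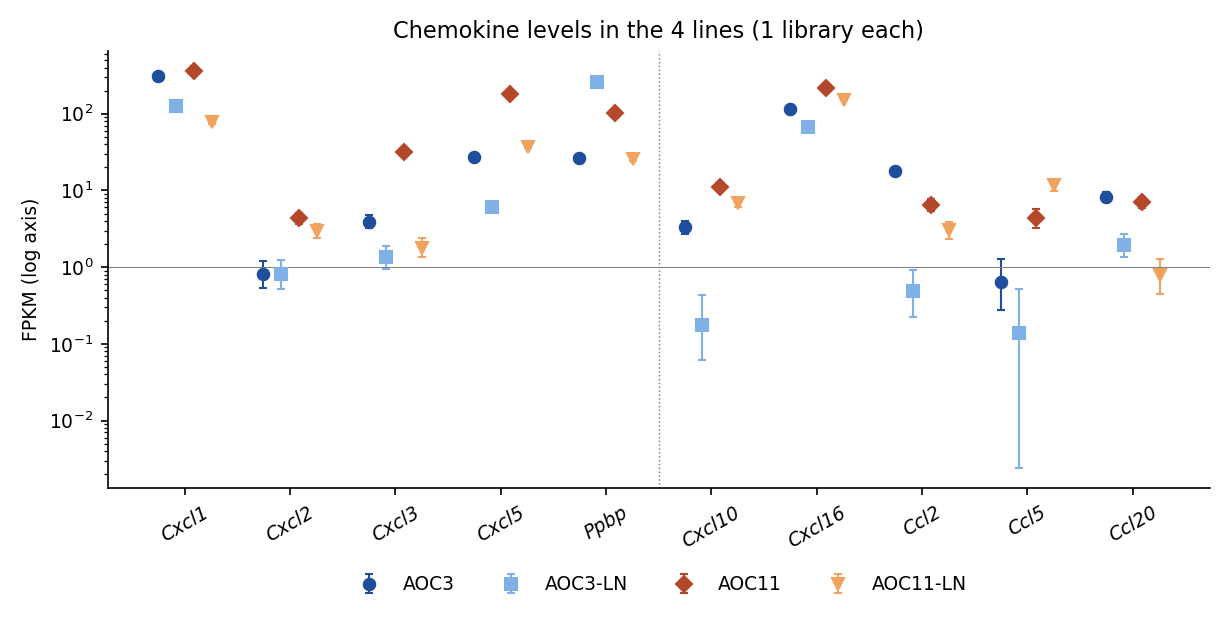
FPKM (log axis) of the 10 chemokine genes in the 4 lines, with 1 point per library and bars for the 95% counting interval; the dotted line parts neutrophil attractants from the others and the thin line marks 1 FPKM. Ppbp is highest in AOC3-LN at 255.5 FPKM, while Cxcl1 and Cxcl5 are lower in each lymph node line than in its primary line.

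Ccl2, the main attractant of monocytes, was lower in both lymph node lines, by very different amounts. It measured 17.7 FPKM in AOC3 and 0.483 in AOC3-LN, against 6.50 in AOC11 and 3.04 in AOC11-LN. AOC3 was 36.6-fold above AOC3-LN (19.1 to 80.7) and AOC11 was 2.14-fold above AOC11-LN (1.58 to 2.92). The log2 difference in mouse 11, -1.02, was -0.89 without quantile normalization and -0.87 with scaling by the median, short of the threshold. The value in AOC3-LN rests on an estimated 9 fragments, with an interval of 0.221 to 0.919 FPKM. Among the 10 genes, Ccl2 was the one past the threshold toward AOC3 in the comparison of the primary lines, 2.72-fold above AOC11 (2.24 to 3.33). In the comparison of the lymph node lines the direction was the opposite, with AOC11-LN 6.29-fold above AOC3-LN (3.12 to 14.4).

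Ccl20, which mucosal epithelium releases toward Ccr6-bearing cells, had the pattern closest to that of Cxcl1. Its level was 8.26 FPKM in AOC3 and 1.92 in AOC3-LN, against 7.03 in AOC11 and 0.790 in AOC11-LN. Each primary line was above its lymph node line, by 4.30-fold in mouse 3 (2.98 to 6.37) and by 8.91-fold in mouse 11 (5.30 to 16). The primary lines did not differ beyond counting error, with a ratio of AOC3 to AOC11 of 1.17 (0.937 to 1.47).

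Cxcl10, an interferon-induced attractant of T and NK cells, was lowest in AOC3-LN. It measured 3.29 FPKM in AOC3 and 0.178 in AOC3-LN, against 11.2 in AOC11 and 6.90 in AOC11-LN. AOC3 was 18.5-fold above AOC3-LN (7.66 to 58.1), and AOC11 was 1.62-fold above AOC11-LN (1.36 to 1.93). The value in AOC3-LN rests on an estimated 5 fragments, with an interval of 0.0612 to 0.440 FPKM, so the size of the first ratio is poorly fixed. Both AOC11 lines were above both AOC3 lines. Cxcl10 lies within Art3 on the opposite strand, whose own level was at most 0.248 FPKM.

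Ccl5, an attractant of T cells and monocytes, was the only one of the 10 genes that was highest in AOC11-LN. It was 0.644 FPKM in AOC3 and 0.138 in AOC3-LN, against 4.35 in AOC11 and 11.8 in AOC11-LN. AOC11-LN was 2.70-fold above AOC11 (1.95 to 3.80). The AOC3 lines rest on an estimated 8 fragments and 1 fragment and did not differ beyond counting error, with a ratio of AOC3 to AOC3-LN of 4.67 (0.627 to 207.4). The ratio of AOC11-LN to AOC3-LN was 85.5, with an interval of 15.1 to 3399.9, so its size is not fixed by these libraries.

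Cxcl16, made as a membrane-bound chemokine that is shed from the cell surface, had the smallest ratio of highest to lowest FPKM among the 10 genes, while on the normalized log2 scale its range of 1.68 came after that of Cxcl2, 1.60. It measured 113.7 FPKM in AOC3 and 67.3 in AOC3-LN, against 218.2 in AOC11 and 153.0 in AOC11-LN. Its highest level was 3.24 times its lowest, against between 4.59 times (Cxcl1) and 85.5 times (Ccl5) for the other 9 genes. The primary line was 1.69-fold above the lymph node line in mouse 3 (1.63 to 1.75) and 1.43-fold in mouse 11 (1.39 to 1.46), both short of the threshold. Zmynd15, which overlaps Cxcl16 on the opposite strand, had 22.9, 12.8, 39.97 and 34.6 FPKM in AOC3, AOC3-LN, AOC11 and AOC11-LN. Use of strand in the counting is not stated, so reads from the overlap of these genes cannot be told apart.

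The 10 genes were then counted against the threshold, and the share of all 14165 genes past it is printed with each count. AOC3-LN was lower than AOC3 for 5 genes (Cxcl1, Cxcl5, Cxcl10, Ccl2 and Ccl20), where 3.42% of all genes were lower, and higher for Ppbp, where 2.11% were higher. AOC11-LN was lower than AOC11 for 6 genes (Cxcl1, Cxcl3, Cxcl5, Ppbp, Ccl2 and Ccl20), where 3.14% of all genes were lower, and higher for Ccl5, where 4.97% were higher. The median log2 difference of the 10 genes was -1.13 in mouse 3 and -1.50 in mouse 11, and that of all genes was 0.02 and -0.02. Cxcl1, Cxcl5, Ccl2 and Ccl20 were lower past the threshold in both mice, as were 0.388% of all genes. Ppbp was higher in AOC3-LN and lower in AOC11-LN, as were 0.304% of all genes. Because the genes were picked with these levels known, the counts describe them and are no evidence that chemokines as a class differ.

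**Figure D3:**
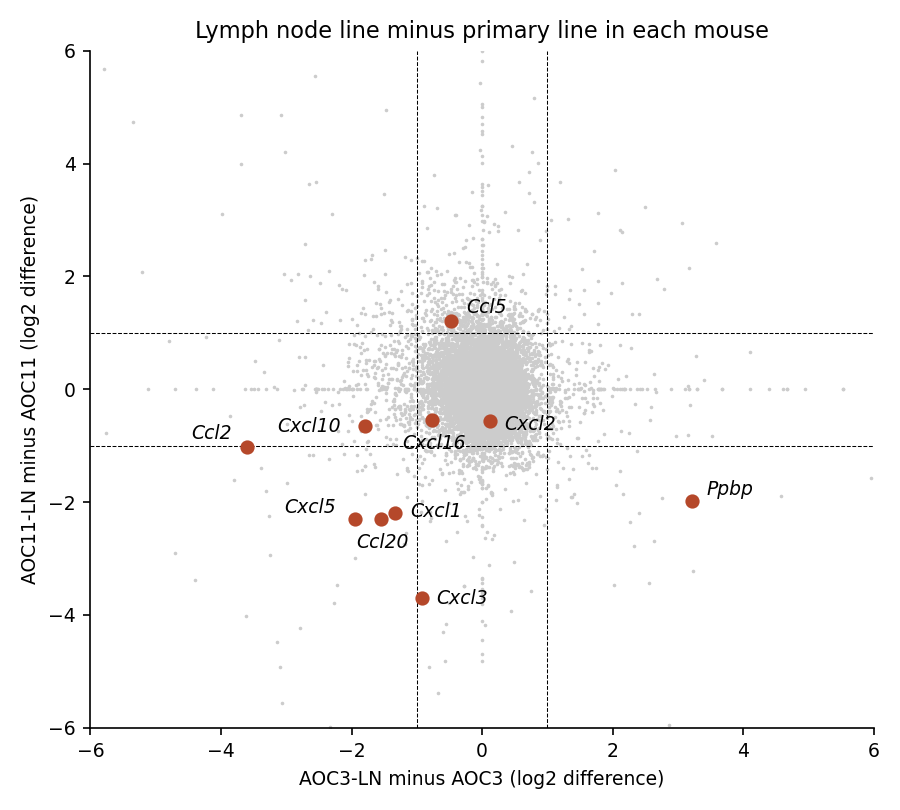
Log2 difference of the lymph node line minus the primary line in mouse 3 (horizontal axis) and mouse 11 (vertical axis), for 14165 genes in grey and the 10 chemokine genes in red; dashed lines mark the 2-fold threshold, and 51 genes beyond 6 on either axis are not drawn. Cxcl1, Cxcl5, Ccl2 and Ccl20 lie in the lower left, and Ppbp lies in the lower right.

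Between the mice, most of the genes were higher in the AOC11 lines. AOC3 was lower than AOC11 for 6 genes (Cxcl2, Cxcl3, Cxcl5, Ppbp, Cxcl10 and Ccl5), where 5.69% of all genes were lower, and higher for Ccl2, where 6.25% were higher. AOC3-LN was lower than AOC11-LN for 5 genes (Cxcl5, Cxcl10, Cxcl16, Ccl2 and Ccl5), where 8.69% of all genes were lower, and higher for Ppbp, where 7.58% were higher. Over the means of both lines of a mouse, 6 genes were lower in the AOC3 lines (Cxcl2, Cxcl3, Cxcl5, Cxcl10, Cxcl16 and Ccl5), where 6% of all genes were lower. None was higher in the AOC3 lines, where 5.1% of all genes were. These comparisons share libraries with each other and with those within a mouse, so their counts are not independent. The mean for Cxcl3 rests on AOC11: without that library its log2 difference was 0.51 in place of -1.34. For Ccl2 the difference of 0.05 became -1.75 without AOC3. Without AOC11, 3 of the 10 genes were lower and 3 higher in the AOC3 lines, where 1031 and 908 of the 14165 genes were. Without AOC3-LN, 4 were lower and 2 higher, where 727 and 729 of all genes were. Without AOC3, 7 were lower and 1 higher, where 1073 and 883 of all genes were. Without AOC11-LN, 6 were lower and none higher, where 895 and 904 of all genes were. Cxcl2, at -1.25 with all lines, was at -0.97 without AOC11, and Cxcl3 was at -0.88 without AOC3-LN. Cxcl16, at -1.02, was at -0.75 without AOC11, at -0.64 without AOC3-LN and at -0.97 with scaling by the median.

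The neutrophil attractants also differed between lines in their make-up. Cxcl1 formed 84.2% of their summed FPKM in AOC3 and 32.1% in AOC3-LN, against 52.8% in AOC11 and 53.5% in AOC11-LN. Ppbp formed 7.12%, 65.8%, 15.2% and 17.7% in the same order, and Cxcl5 formed 7.37%, 1.58%, 26.7% and 25.5%. In the lines of mouse 11 the shares of these 3 genes were close at very different totals, and Ppbp held the largest share only in AOC3-LN. The small shares of the other two differed there: Cxcl3 formed 4.71% in AOC11 and 1.23% in AOC11-LN, and Cxcl2 formed 0.639% and 2.04%. The summed level was 371.1 FPKM in AOC3 and 388.6 in AOC3-LN, against 676.6 in AOC11 and 145.4 in AOC11-LN. Without Ppbp the sums were 344.7, 133.0, 573.8 and 119.7 FPKM, lower in each lymph node line than in its primary line.

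**Figure D4:**
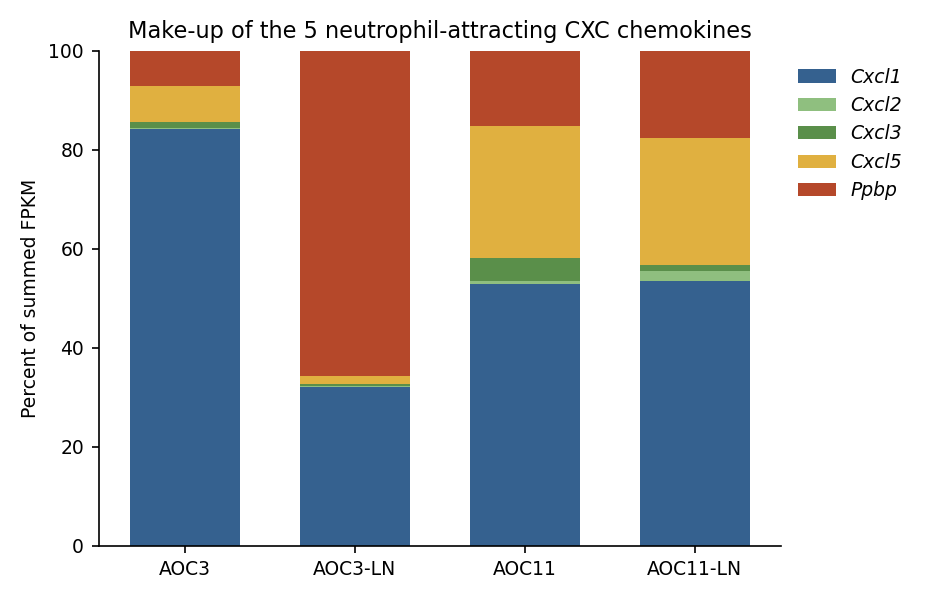
Share of Cxcl1, Cxcl2, Cxcl3, Cxcl5 and Ppbp in the summed FPKM of these 5 genes (vertical axis, percent) in each line, 1 library per bar. Ppbp makes up 65.8% in AOC3-LN and between 7.12% and 17.7% in the other lines.

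Ratios between 2 chemokines within a line do not depend on the scale factor of the library. The ratio of Cxcl1 to Cxcl5 was 11.4 in AOC3 and 20.3 in AOC3-LN, against 1.98 in AOC11 and 2.10 in AOC11-LN. It differed more between the mice than within them. The ratio of Ppbp to Cxcl5 was 0.966, 41.6, 0.570 and 0.693 in AOC3, AOC3-LN, AOC11 and AOC11-LN, and set AOC3-LN apart. The ratio of Ccl2 to Ccl5 was 27.5 in AOC3 and 3.51 in AOC3-LN, against 1.49 in AOC11 and 0.258 in AOC11-LN. In mouse 3 it rests on few fragments, an estimated 9 for Ccl2 in AOC3-LN and 8 and 1 for Ccl5 in AOC3 and AOC3-LN, and its direction there is not fixed.

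Likeness between patterns was measured as the Euclidean distance of centered log2 values over the 4 lines, which is a description over 4 points. Among the 10 genes the closest pair was Cxcl1 and Ccl20 (0.34), followed by Cxcl2 and Cxcl16 (0.67), which lie on different chromosomes, and Cxcl5 and Cxcl10 (1.24). Among all other genes with at least 10 FPKM in a line, those nearest to Cxcl1 were Ankrd1 (0.42), Gm24975 (0.43) and Ccn1 (0.47). Those nearest to Ccl20 were Ankrd1 (0.55), 2310007B03Rik (0.67) and Csf3 (0.76), the growth factor of neutrophils. Csf3 had 108.9, 75.7, 170.4 and 26.3 FPKM in AOC3, AOC3-LN, AOC11 and AOC11-LN.

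The nearest gene to Ppbp was Ptgs2, the inducible cyclooxygenase, at a distance of 1.08. Ptgs2 stood at 4.91 FPKM in AOC3 and 53.2 in AOC3-LN, against 52.0 in AOC11 and 4.95 in AOC11-LN, so both genes were high in AOC3-LN and AOC11 and low in AOC3 and AOC11-LN. Tigit (1.20) and Nkd2 (1.21) came next. The nearest genes to Ccl2 were Lcn2 (0.45), which encodes an iron-sequestering protein, Nos2 (0.79), the inducible nitric oxide synthase, and the protease inhibitor gene Slpi (0.98). Lcn2 had 65.1, 3.50, 33.2 and 10.3 FPKM and Nos2 22.3, 0.551, 3.36 and 2.57 FPKM in AOC3, AOC3-LN, AOC11 and AOC11-LN, both lowest in AOC3-LN and highest in AOC3, as Ccl2 was.

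For Cxcl2 the nearest genes were Exoc3 (0.09), Snx8 (0.13) and Hist1h2bg (0.14), and for Ccl5 they were Gstm2 (0.06), Tmem86a (0.06) and Pla2g16 (0.19). For Cxcl5, Slc23a3 (0.97) and Gm28017 (0.98) were nearest. For Cxcl3 they were the short microRNA entries Gm22859 (0.43), Gm22907 (0.49) and Gm26190 (0.52), whose FPKM values are uncertain because of their length. Gm24975, named for Cxcl1, and Gm28017, named for Cxcl5, are short microRNA entries as well, with the same limit. Gm22859 also shares 50-base stretches with Cxcl3.

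The 5 chemokines of the chromosome 5 cluster described here all had log2 differences below 0 in mouse 11 and had differences of both signs in mouse 3. The chromosome 5 cluster (GENCODE M21, build mm10) runs from Cxcl5 (chr5:90759360-90761624) through Ppbp (chr5:90768518-90770063), Pf4, Cxcl3 (chr5:90786103-90789600), Cxcl15 and Cxcl1 (chr5:90891241-90893115) to Cxcl2 (chr5:90903871-90905938), all on the plus strand. Of these 7 genes, Pf4 and Cxcl15, a lung chemokine, did not reach 1 FPKM. In mouse 3 the log2 differences along the cluster were -1.94 for Cxcl5, 3.22 for Ppbp, -0.93 for Cxcl3, -1.33 for Cxcl1 and 0.12 for Cxcl2. In mouse 11 they were -2.30, -1.98, -3.70, -2.20 and -0.57. Ppbp therefore stood against its neighbors in mouse 3 and with them in mouse 11. Cxcl10 (chr5:92346638-92348889, minus strand) lies near Cxcl9, which had at most 0.0225 FPKM.

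On chromosome 11, Ccl2 (chr11:82035571-82037453, plus strand) and Ccl5 (chr11:83525778-83530518, minus strand) belong to a region with 11 chemokine genes. Ccl2, Ccl5 and Ccl9 reached 1 FPKM, and Ccl1, Ccl8, Ccl11 and Ccl12 were listed at 0 in all lines. Gm17268, which overlaps Ccl2 on the opposite strand, was not analysed here. Ccl7, the monocyte attractant next to Ccl2, had at most 0.144 FPKM. Cxcl16 (chr11:70453983-70459984, minus strand) and Ccl20 (chr1:83116766-83119167, plus strand) lie apart from these clusters.

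Of 27 further chemokine ligands in the table, 7 reached 1 FPKM. Past the threshold, 1 was higher and 2 were lower in AOC3-LN than in AOC3, where 2.11% and 3.42% of all genes were. In AOC11-LN 4 were higher and 1 was lower than in AOC11, where 4.97% and 3.14% of all genes were. Ccl27a, a keratinocyte attractant of skin-homing T cells, had 4.23, 11.3, 4.71 and 11.4 FPKM in AOC3, AOC3-LN, AOC11 and AOC11-LN and was the one higher in both lymph node lines. Cx3cl1, the membrane-bound fractalkine, had 21.02, 6.93, 10.7 and 33.6 FPKM in the same order. Cxcl12, the ligand of Cxcr4, had 1.57, 0.472, 0.517 and 5.99 FPKM, and Cxcl14 had 3.04, 0.401, 0.467 and 3.41 FPKM. Cx3cl1, Cxcl12 and Cxcl14 shared the order of lines with AOC11-LN and AOC3 high, the reverse of Ppbp. Ccl9 had 0.126, 0.145, 5.60 and 1.18 FPKM and was high in AOC11.

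Receptors for the 10 chemokines were hardly detected in the same cells. Of 22 chemokine receptors listed, 3 reached 1 FPKM, namely Cxcr3, Ackr3 and Ccrl2, and the highest value of any was 2.23 FPKM, for Cxcr3 in AOC11-LN. Cxcr2, the receptor of the neutrophil attractants, had at most 0.0867 FPKM, Cxcr6 at most 0.0344 and Ccr2 at most 0.000739. Ccr6 was listed at 0 in all lines. Cxcr3, which binds Cxcl10, had 0.0567, 0.963, 0.229 and 2.23 FPKM in AOC3, AOC3-LN, AOC11 and AOC11-LN. Past the threshold, none of the 3 differed in mouse 3, where 2.11% of all genes were higher and 3.42% lower. Cxcr3 was higher in AOC11-LN than in AOC11, as were 4.97% of all genes.

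The NF-kB machinery that acts upstream of these genes was counted in the same way. Of 22 subunits, kinases and inhibitors, all above 1 FPKM in a line, 2 were lower in AOC3-LN than in AOC3 and none was past the threshold in mouse 11, where 3.42% and 3.14% of all genes were lower, with medians of -0.15 and -0.18. The 2 genes were the inhibitors Nfkbie, with 8.07, 1.01, 18.3 and 18.2 FPKM in AOC3, AOC3-LN, AOC11 and AOC11-LN, and Nfkbia, with 96.9, 34.5, 93.8 and 65.5 FPKM, both of which are themselves induced by NF-kB. Between the mice, 5 of the 22 were lower in the AOC3 lines over the means, where 6% of all genes were lower. Among them was the subunit gene Relb, with 7.27, 5.32, 22.13 and 21.7 FPKM. Of 20 cytokine and pattern receptors above 1 FPKM, 1 was lower in AOC3-LN than in AOC3, where 3.42% of all genes were. That gene, Tnfrsf1b, encodes a receptor of tumor necrosis factor and had 10.8, 4.11, 3.13 and 7.42 FPKM. None was past the threshold in mouse 11, where 3.14% of all genes were lower and 4.97% higher. Il17rc, which encodes a subunit of the interleukin 17 receptor, had 11.8, 5.07, 31.03 and 25.2 FPKM and was higher in both AOC11 lines.

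Other inflammatory genes were counted beside them, without a test between lists. Of 18 above 1 FPKM, 7 were lower and 2 higher in AOC3-LN than in AOC3 (median -0.47), where 3.42% and 2.11% of all genes were. In AOC11-LN 9 were lower and 1 higher than in AOC11 (median -0.95), where 3.14% and 4.97% of all genes were. Csf1, the growth factor of macrophages, had 174.3, 48.7, 210.7 and 81.5 FPKM and was lower in both lymph node lines. Tnf had 2.23, 0.324, 1.97 and 0.437 FPKM and did the same. Ptgs2 and Csf2 were the 2 genes higher in AOC3-LN, and both were lower in AOC11-LN, as Ppbp was. Csf2, a growth factor of granulocytes and macrophages, had 6.48, 18.4, 7.26 and 1.30 FPKM in AOC3, AOC3-LN, AOC11 and AOC11-LN. Il1a, which encodes an interleukin that induces chemokines, had 173.4, 135.6, 69.1 and 11.3 FPKM.

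Interferon-regulated genes had medians of opposite sign in the mice, and were read beside Cxcl10 and Ccl5, which interferons can induce. Of 13 such genes, 4 were lower and none higher in AOC3-LN than in AOC3 (median -0.74), where 3.42% and 2.11% of all genes were. In AOC11-LN 3 were higher and none lower than in AOC11 (median 0.65), where 4.97% and 3.14% of all genes were. Isg15, a ubiquitin-like interferon target, had 4.40, 0.411, 4.87 and 14.5 FPKM in AOC3, AOC3-LN, AOC11 and AOC11-LN. Gbp2 had 3.79, 0.508, 4.14 and 14.2 FPKM and Usp18 had 1.20, 0.175, 1.19 and 9.43 FPKM. Like these, Ccl5 was highest in AOC11-LN, and its lowest value was that of AOC3-LN, where it did not differ from AOC3 beyond counting error. Cxcl10 shared the low value in AOC3-LN but was highest in AOC11.

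**Figure D5:**
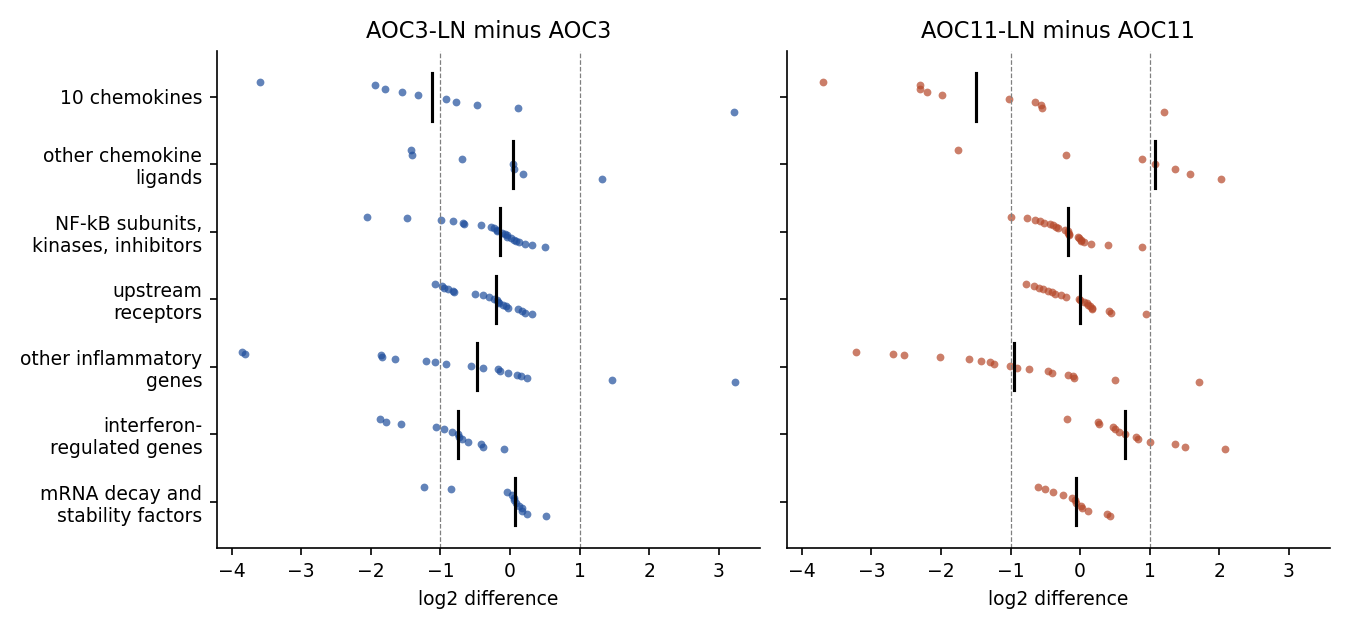
Log2 difference of the lymph node line minus the primary line (horizontal axis) for each gene above 1 FPKM of 7 gene lists, mouse 3 on the left and mouse 11 on the right; points are genes, black bars are list medians and dashed lines mark the 2-fold threshold. The 10 chemokines have medians of -1.13 and -1.50, and the interferon-regulated genes have medians of -0.74 and 0.65.

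Factors that set the decay of chemokine transcripts and enzymes that cut chemokines were counted last. Of 12 decay and stability factors 1 was lower in AOC3-LN past the threshold, where 3.42% of all genes were. That gene, Zc3h12a, encodes a nuclease that degrades inflammatory transcripts and had 9.55, 3.08, 6.26 and 4.07 FPKM in AOC3, AOC3-LN, AOC11 and AOC11-LN. None was past the threshold in mouse 11, where 3.14% of all genes were lower and 4.97% higher. Of 5 enzymes above 1 FPKM, none was past the threshold in mouse 11 either. In mouse 3, 1 was lower in AOC3-LN past the threshold, where 3.42% of all genes were. That gene was Mmp9, a gelatinase that trims CXC chemokines, with 46.8, 5.60, 11.1 and 16.9 FPKM. Adam10, the main sheddase of Cxcl16, had 26.3, 19.0, 23.0 and 18.9 FPKM.

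Markers of the lines' own type and of other cell types were read beside these results. All 10 epithelial markers reached 1 FPKM in at least 1 line, with sums between 3266 and 3777 FPKM in the 4 lines. These sums hide differences between the mice. Trp63 had 1.69, 2.096, 0.0848 and 0.841 FPKM in AOC3, AOC3-LN, AOC11 and AOC11-LN, short of 1 FPKM in both AOC11 lines. Krt5 had 498.9, 274.7, 4.99 and 17.03 FPKM in the same order. Over the means, both genes were past the threshold toward the AOC3 lines (log2 differences of 1.12 and 5.19), where 5.1% of all genes were. None of the 10 was past it toward the AOC11 lines, where 6% of all genes were. Krt14 (-0.69), Cldn4 (-0.79) and Dsp (-0.76) leaned furthest toward the AOC11 lines. No fibroblast marker (of 8) and no endothelial marker (of 6) reached 1 FPKM. For neutrophils 3 of 11 markers did, with sums between 1.72 and 3.51 FPKM, and Elane and Retnlg were listed at 0 in all lines. Ly6g, a defining surface marker, had 0.451, 0.588, 2.47 and 1.33 FPKM in AOC3, AOC3-LN, AOC11 and AOC11-LN, and was past the threshold toward AOC11 between the primary lines (-1.34), as Cxcl5 and Cxcl10 were. Between the primary lines 5.69% of all genes were lower in AOC3. The other markers leaned toward AOC3 there, short of the threshold (0.98 for Ltf and 0.52 for S100a8). Ltf had 1.96, 0.417, 0.376 and 0.313 FPKM in AOC3, AOC3-LN, AOC11 and AOC11-LN, and S100a8 had 0.827, 1.07, 0.197 and 0 FPKM. For platelets 1 of 8 did, with sums of 1.77, 1.85, 2.43 and 4.91 FPKM in AOC3, AOC3-LN, AOC11 and AOC11-LN, and Gp9 and Treml1 were listed at 0 in all lines. That marker, Itga2b, had 1.025, 0.979, 2.36 and 4.61 FPKM, and Gp1ba had 0.594, 0.622, 0.0701 and 0.145 FPKM, while Ppbp stood at 255.5 FPKM in AOC3-LN. The part of platelets in the Ppbp level was not tested beyond these values.

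For macrophages 2 of 10 markers reached 1 FPKM, with sums of 14.2, 10.2, 27.0 and 10.5 FPKM, and Adgre1, C1qa, C1qb and C1qc were listed at 0 in all lines. Csf1r had 0.995, 0.435, 20.8 and 6.01 FPKM, highest in AOC11, and Cd68 had 13.0, 8.79, 6.15 and 4.45 FPKM, highest in AOC3. For T cells 2 of 8 did, with sums of 2.26, 1.67, 10.5 and 7.54 FPKM, and Cd3e, Cd4 and Cd8a were listed at 0 in all lines. They were Il2rg, a cytokine receptor subunit gene, with 0.554, 0.0843, 7.88 and 4.61 FPKM, and Trac, with 0.961, 1.49, 2.13 and 2.07 FPKM, so Il2rg made most of the sum in the AOC11 lines. Il2rg, Ccl5, Cxcl5 and Cxcl10 were all higher in the AOC11 lines than in the AOC3 lines, and the part of other cells in those differences was not tested beyond these marker levels.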

How the data were processed

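Polyadenylated RNA of cultured cells was sequenced from 4 lines, 1 library each, with a stranded kit and paired reads. Per the submitters' processing notes, reads were handled with Trim Galore, TopHat2 and Cufflinks on mm10, with versions not given in the sources used here. The authors deposited FPKM values, 34721 entries for 34685 genes, and no read counts. Cufflinks divides reads among transcripts and corrects for length, so short genes are the least certain.

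A pseudocount of 1 was added before the log2 transformation and quantile normalization (Python 3.11.15, numpy 2.4.6, pandas 2.3.3, scipy 1.17.1). The 14165 genes that reached 1 FPKM in any line entered the comparisons, with a threshold of 2-fold on the log2 scale. No test was run and no p-value was computed, because each line has 1 library and the genes were chosen with their levels known. Depth was estimated from low FPKM values of 9528 genes with 1 transcript: between 67.0% and 70.7% of the values used lay within 0.1 of a whole number of fragments, against 20% by chance. Because fewer than nearly all were whole, no count test was run. The fragment numbers of a gene, on its principal transcript, and the exact 95% Poisson and binomial intervals made from them are therefore approximate. The depth estimate and the fold threshold were tested on simulated data.

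Gene names and positions came from GENCODE M21 and promoters from RefSeq GRCm38.p6. The protein comparison planned at the outset could not be run. The 10 genes and the other 15 lists were chosen with earlier results of these data known. Named genes were the 10 chemokines, list members past the threshold or needed to say which are expressed, and the 3 genes nearest in pattern to 8 of the 10. Ccl26 and Cxcr1 were not analysed here. A few genes that the rule would name are not reported here. Alternatives changed the pseudocount, normalization, filter, threshold, the lines used, the genes in the make-up and the transcript length.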

Additional observations from a re-analysis of the deposited data

Results flagged for a closer look

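Ppbp was the gene whose difference between the lymph node line and the primary line went past the threshold in opposite directions in the mice. Its log2 difference was 3.22 for AOC3-LN minus AOC3 and -1.98 for AOC11-LN minus AOC11. Each direction rests on 1 library per line, and the difference between the mice was not tested.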

How the results depend on the processing

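Across 50 single-gene differences (10 genes in 5 comparisons), those past the threshold kept their direction under another pseudocount, normalization, filter or threshold. Cxcl2 in mouse 3, Cxcl3 between the lymph node lines and Ccl2 between the mice, short of the threshold, changed sign with the pseudocount or normalization. Calls lost under these settings were those of Ccl2 in mouse 11 (-0.89 without quantile normalization, -0.87 with scaling by the median) and Cxcl16 between the mice (-0.97 with scaling by the median). Cxcl2 between the lymph node lines gained a call with a pseudocount of 0.1 (-1.41), without quantile normalization (-1.13) and with scaling by the median (-1.07). Cxcl3 in mouse 3 did so too (-1.26, -1.06 and -1.01). Gained with a pseudocount of 0.1 alone were Ccl5 in mouse 3 (-1.44) and Ccl20 between the lymph node lines (1.64). At 1.5-fold, 8 differences short of 2-fold were past the threshold. No filter on low values lost no call, and at 5 FPKM Cxcl2 left the set. Leaving out a library moved Ccl2 between the mice from -1.75 (without AOC3) to 1.84 (without AOC3-LN) and Cxcl3 from -3.19 (without AOC11-LN) to 0.51 (without AOC11), so that both changed direction, as did Cxcl1, Ppbp and Ccl20 between the mice, short of the threshold with all lines. It also ended the calls of Cxcl2 (-0.97) and Cxcl16 (-0.75) without AOC11 and of Cxcl3 (-0.88) and Cxcl16 (-0.64) without AOC3-LN. Between 6 and 8 of the 10 genes were past the threshold, where 1456 to 1956 of the 14165 genes were, and the split ran from 3 higher and 3 lower without AOC11 to 1 higher and 7 lower without AOC3. Without Ppbp, Cxcl1 formed 90.7% and 93.7% of the neutrophil attractants in AOC3 and AOC3-LN and 62.2% and 65.04% in AOC11 and AOC11-LN, by construction. With a pseudocount of 0.1, the count of all genes past the threshold was 1443 in mouse 3 (783 with a pseudocount of 1), 2074 in mouse 11 (1149), 2636 between the primary lines (1692) and 2627 between the mice (1573). At 1.5-fold it was 1948, 3482, 4086 and 3814 in these comparisons, and 5095 between the lymph node lines (2304 at 2-fold). Summed over the 10 genes in a line, estimated fragments on the full transcript length stayed within 1.5 times of the main estimate. Single genes were not compared in this way, and short ones such as Ccl5 depend most on the length used. Genes with under about 10 fragments in a line (Ccl2, Cxcl10 and Ccl5 in AOC3-LN, and Ccl5 in AOC3) have ratios of uncertain size. The lines pair by mouse, but no paired test was run, because there are only 2 mice and each line is 1 library. A fit of site with the mouse as a term was not run, and each mouse's own difference is given instead.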
